A study of Mus musculus with 12 samples.

Results

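Regulator of G protein signalling (RGS) genes and G protein gamma subunit genes were followed in mouse follicular B cells after stimulation through the B cell receptor. The 9 genes were Rgs1, Rgs2, Rgs10, Rgs14, Rgs16, Rgs18, Rgs19, Gng2 and Gng4, taken by symbol from 18193 genes measured on the arrays. Each gene was read from its probe set, a group of short probes against 1 transcript region, with the highest mean over the 12 arrays. All 9 genes were measured, and by these probe sets 7 were above the signal floor in at least 1 array and 4 (Rgs1, Rgs2, Rgs19 and Gng4) in all 12. The floor was a log2 signal of 4.21, which lies 1 above the highest array median. Below it a signal was not told apart from background, so no fold change is given where both groups lie under it. Where an array of the lower group lies under it, the fold is a lower bound, written as "at least".

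The cells were follicular B cells (B220+CD23hiCD21lo) sorted from the spleens of C57Bl/6 mice aged 6 weeks, to a purity over 98%. IkL/L cells came from Ikaros-deficient mice, which carry the IkL alleles of Ikzf1, the gene of the lymphoid transcription factor Ikaros, in every cell of the animal (alleles known to lower Ikaros without abolishing it), and WT cells came from wild-type mice. In each genotype, cells were cultured for 3 h without stimulus, for 3 h with goat anti-mouse IgM F(ab')2 at 10 µg/ml, or for 12 h with it, with 2 arrays per group, 6 groups and 12 arrays. Both the 3 h and the 12 h stimulated cells were set against cells cultured for 3 h without stimulus, so that time in culture differs in the 12 h comparison. The same unstimulated arrays serve both comparisons of a genotype. The labels speak of 2 independent experiments, and nothing in them says how many mice gave the cells of an array.

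G protein coupled receptors, among them the chemokine and lipid receptors that position B cells in the spleen, signal through a G alpha subunit and a paired beta and gamma subunit. On activation the alpha subunit binds GTP and both arms signal until the GTP is hydrolysed. RGS proteins speed up that hydrolysis and so shorten the signal, and in B cells Rgs1 is known for curbing chemotaxis. Gamma subunits carry the lipid anchor that holds the beta-gamma pair at the membrane.

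The genes fell into 4 kinds of time course. Rgs1, Rgs2 and Gng4 were highest at 3 h in both genotypes, Rgs10 was above the floor in every array only at 12 h, Rgs14 was lower after stimulation, and Rgs19 varied little. By the probe sets used, Gng2 lay close to the floor, and Rgs16 and Rgs18 lay under it in every array. By these probe sets no member passed the test between IkL/L and WT in any condition, while a second Gng2 probe set, dim in every array, was called lower in unstimulated IkL/L cells.

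Promoters are shown for Rgs2 and Gng4, which were both highest at 3 h, and for Rgs10, which was highest at 12 h. RefSeq promoter windows (GRCm38.p6, 250 bases before to 50 bases after a gene's start, 5′ to 3′) were at hand for 6 of the 9 members (Rgs2, Rgs10, Rgs16, Rgs19, Gng2 and Gng4). Rgs2 lies at chr1:144004100-144004399 on the minus strand, the 2 starts of Gng4 at chr13:13783809-13784108 and chr13:13784057-13784356 on the plus strand, and Rgs10 at chr7:128418123-128418422 on the minus strand. Capitals mark matches, on either strand, to TGACG (the cyclic AMP response element half-site) and GGAAA (the core bound by NFAT factors).
Rgs2: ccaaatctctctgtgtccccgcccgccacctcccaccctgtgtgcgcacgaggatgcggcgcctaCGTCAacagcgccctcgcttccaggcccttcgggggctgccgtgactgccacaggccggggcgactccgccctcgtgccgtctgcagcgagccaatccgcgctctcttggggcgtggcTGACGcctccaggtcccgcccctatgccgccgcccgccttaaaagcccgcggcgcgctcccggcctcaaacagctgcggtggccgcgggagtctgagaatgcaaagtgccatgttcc
Gng4, first start: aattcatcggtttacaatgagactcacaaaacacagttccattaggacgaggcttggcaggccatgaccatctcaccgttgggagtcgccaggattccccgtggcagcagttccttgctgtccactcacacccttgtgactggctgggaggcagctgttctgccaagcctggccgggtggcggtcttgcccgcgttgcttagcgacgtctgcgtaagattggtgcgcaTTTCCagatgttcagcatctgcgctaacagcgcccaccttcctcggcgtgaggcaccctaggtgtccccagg
Gng4, second start: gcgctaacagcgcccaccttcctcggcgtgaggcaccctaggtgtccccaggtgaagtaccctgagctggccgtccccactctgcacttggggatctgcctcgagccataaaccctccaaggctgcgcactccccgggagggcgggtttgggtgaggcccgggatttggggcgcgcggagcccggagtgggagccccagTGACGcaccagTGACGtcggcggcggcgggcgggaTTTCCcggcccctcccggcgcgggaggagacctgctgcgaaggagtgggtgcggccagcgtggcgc
Rgs10: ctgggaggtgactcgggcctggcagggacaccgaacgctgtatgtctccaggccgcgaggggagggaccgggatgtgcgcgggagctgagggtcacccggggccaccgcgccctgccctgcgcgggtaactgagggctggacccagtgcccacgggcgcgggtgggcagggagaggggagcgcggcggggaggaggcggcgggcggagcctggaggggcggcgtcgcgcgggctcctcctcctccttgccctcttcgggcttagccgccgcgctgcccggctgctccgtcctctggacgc
The Rgs2 window held 2 TGACG matches and no GGAAA match. The window at the second Gng4 start held 2 TGACG matches and 1 GGAAA match, and that at the first start 1 GGAAA match. The Rgs10 window held neither. TGACG occurs in 20.8% and GGAAA in 61.3% of 32851 promoter windows of this length. Neither the AP-1 motif TGANTCA, found in 7.81% of windows, nor TGGGAA, a core sequence bound by Ikaros found in 25.6%, matched in these 4 windows. Among the windows not shown, that of Gng2 held 1 TGANTCA match and that at the first Rgs19 start 1 TGGGAA match. Gng2 also held 2 GGAAA matches, the first Rgs19 start 1 and the third Rgs19 start 2. The second Rgs19 start and Rgs16 held no GGAAA match, and no window left unshown held TGACG. Matches to GGAAA were thus not limited to genes highest at 3 h, since Gng2 was under the floor there and Rgs19 varied little. The motifs were chosen partly with the sequences in view, and a match is a description of letters only.

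At 3 h, 3 members rose and 1 fell in IkL/L cells, where 9.82% of all 18193 genes rose and 10.6% fell. In WT cells also 3 members rose and 1 fell, where 9.15% of all genes rose and 10.2% fell. The 4 members called of 9 in each genotype stand against 20.4% of all genes called in IkL/L and 19.4% in WT cells. These shares are not like for like. Of all 18193 genes, 8729 were above the floor in at least 1 array, against 7 of the 9 members. The share called among those 8729 is not given. The members were also chosen with earlier results of these data known. A gene was called where limma's p, adjusted over all genes with the Benjamini-Hochberg method, was under 0.05. Rgs1, Rgs2 and Gng4 rose and Rgs14 fell in both genotypes. The median log2 difference of the members was -0.03 in IkL/L and -0.12 in WT cells, against -0.03 and 0.02 over all genes. Both member medians are the value of Rgs18, which was under the floor in every array. Labelling started from a fixed amount of RNA, so that in these bulk samples fewer cells of a type and less RNA per cell cannot be told apart.

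Rgs1, which acts on inhibitory and Gq alpha subunits, had the largest response to 3 h of anti-IgM among the members. In IkL/L cells its log2 signals were 5.38 and 5.99 without stimulus, 9.27 and 9.36 at 3 h, and 7.04 and 6.81 at 12 h. In WT cells they were 5.27 and 4.64 without stimulus, 8.97 and 8.48 at 3 h, and 6.82 and 7.02 at 12 h. All 4 arrays at 3 h lay above all 4 at 12 h, which lay above all 4 without stimulus. Rgs1 was 12.4-fold higher at 3 h than without stimulus in IkL/L cells (log2 difference 3.63, SE 0.25, adjusted p = 1.26e-05) and 13.7-fold higher in WT cells (3.77, adjusted p = 1.24e-05).

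By 12 h Rgs1 had partly returned. It fell 5.24-fold between 3 h and 12 h in IkL/L cells (adjusted p = 0.000241) and 3.49-fold in WT cells (adjusted p = 0.00176). It remained 2.36-fold above unstimulated IkL/L cells (1.24, adjusted p = 0.00706) and 3.91-fold above unstimulated WT cells (1.97, adjusted p = 0.00046). The IkL/L call at 12 h was lost without unstimulated IkL/L replicate 1 (0.94, adjusted p = 0.0558) and without all IkL/L replicate 1 arrays (0.82, adjusted p = 0.235). The WT difference between 12 h and 3 h was not called without all WT replicate 1 arrays (-1.46, adjusted p = 0.0568).

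Rgs2, an RGS protein that prefers Gq alpha subunits, was strongly expressed in every array and rose less than Rgs1. Its log2 signals in IkL/L cells were 9.93 and 9.81 without stimulus, 11.35 and 10.99 at 3 h, and 9.78 and 8.96 at 12 h. The WT signals were 9.69 and 9.48, 10.60 and 10.36, and 9.77 and 9.98 in the same order. The 3 h arrays were the highest of each genotype, while the IkL/L arrays at 12 h differed from each other by more than any other Rgs2 pair. Rgs2 rose 2.47-fold at 3 h in IkL/L cells (1.30, SE 0.24, adjusted p = 0.003) and 1.86-fold in WT cells (0.90, adjusted p = 0.0233).

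The WT rise of Rgs2 rested on both replicates: leaving out any 1 of the 4 WT arrays concerned gave an adjusted p of 0.0611, 0.148, 0.147 or 0.0527 for unstimulated replicates 1 and 2 and 3 h replicates 1 and 2. The difference itself stayed between 0.78 and 1.02 in those fits. Between 3 h and 12 h Rgs2 fell 3.49-fold in IkL/L cells (-1.80, adjusted p = 0.000779). The WT difference was -0.60 (adjusted p = 0.165, 0.0405 with the replicate number as a block within genotype, and 0.0437 for the mean of all Rgs2 probe sets). At 12 h neither genotype differed from its unstimulated cells by the test (IkL/L -0.50, adjusted p = 0.222, against 0.29, adjusted p = 0.521, in WT). Without IkL/L 12 h replicate 1 the IkL/L difference was -0.91 (adjusted p = 0.0162).

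The 2 further Rgs2 probe sets that were above the floor in all 12 arrays moved the same way at 3 h. With every probe set fitted on its own, 1 of them rose by 1.22 in IkL/L cells (adjusted p = 0.00559) and by 0.98 in WT cells (adjusted p = 0.0184), and the other by 1.22 in IkL/L cells (adjusted p = 0.000841) and 0.90 in WT cells (adjusted p = 0.00504). In WT cells they gave, between 3 h and 12 h, -0.89 (adjusted p = 0.0513) and -0.74 (adjusted p = 0.027), so that the second called the fall that the probe set used did not. The probe set used is of a kind that can match transcripts of more than 1 gene.

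Gng4, a gamma subunit, spanned the widest range of the members, with group means 4.93 log2 units apart. In IkL/L cells its log2 signals were 8.33 and 8.03 without stimulus, 10.37 and 10.10 at 3 h, and 5.81 and 5.43 at 12 h. WT arrays gave 7.13 and 7.45 without stimulus, 10.24 and 10.86 at 3 h, and 5.97 and 7.67 at 12 h. The IkL/L conditions did not overlap. The WT arrays at 12 h lay 1 on each side of both unstimulated WT arrays.

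Gng4 rose at 3 h by 4.16-fold in IkL/L cells (2.06, SE 0.44, adjusted p = 0.00728) and by 9.54-fold in WT cells (3.25, adjusted p = 0.000498). It then fell between 3 h and 12 h by 24.5-fold in IkL/L cells (-4.62, adjusted p = 0.000136) and 13.2-fold in WT cells (-3.73, adjusted p = 0.000714). At 12 h it was 5.9-fold below unstimulated cells in IkL/L (-2.56, adjusted p = 0.00273), while the WT difference was -0.47 (adjusted p = 0.595). The call of the IkL/L rise was lost without IkL/L 3 h replicate 1, where the difference was 1.92. It was also lost without IkL/L replicate 1 or replicate 2 in all conditions, where the differences were 2.07 and 2.04. The IkL/L fall below unstimulated cells was not called without either number, with differences of -2.60 and -2.52. These differences lay close to those of the main fit, and each such fit leaves 1 array in a group. The WT difference at 12 h was -1.32 without WT 12 h replicate 2 (adjusted p = 0.0137), and it was 0.22 without all WT replicate 1 arrays (adjusted p = 0.761).

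The Gng4 probe set used is also of the kind that can match transcripts of more than 1 gene. A second Gng4 probe set was above the floor only in the 4 arrays at 3 h, and read 3.14 and 3.17 in unstimulated IkL/L cells and 2.91 and 3.09 in unstimulated WT cells. It rose at 3 h by at least 3.09-fold in IkL/L cells (adjusted p = 1.48e-05) and at least 4.1-fold in WT cells (adjusted p = 8.89e-06), and its fall between 3 h and 12 h had the same bounds (adjusted p = 1.39e-05 in IkL/L and 3.6e-05 in WT cells). Both probe sets thus gave the 3 h peak. The level of Gng4 in unstimulated cells, the fall below it at 12 h and the genotype differences outside 3 h rest on the probe set used alone, since the second was under the floor there and the third in all 12 arrays.

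**Figure D1:**
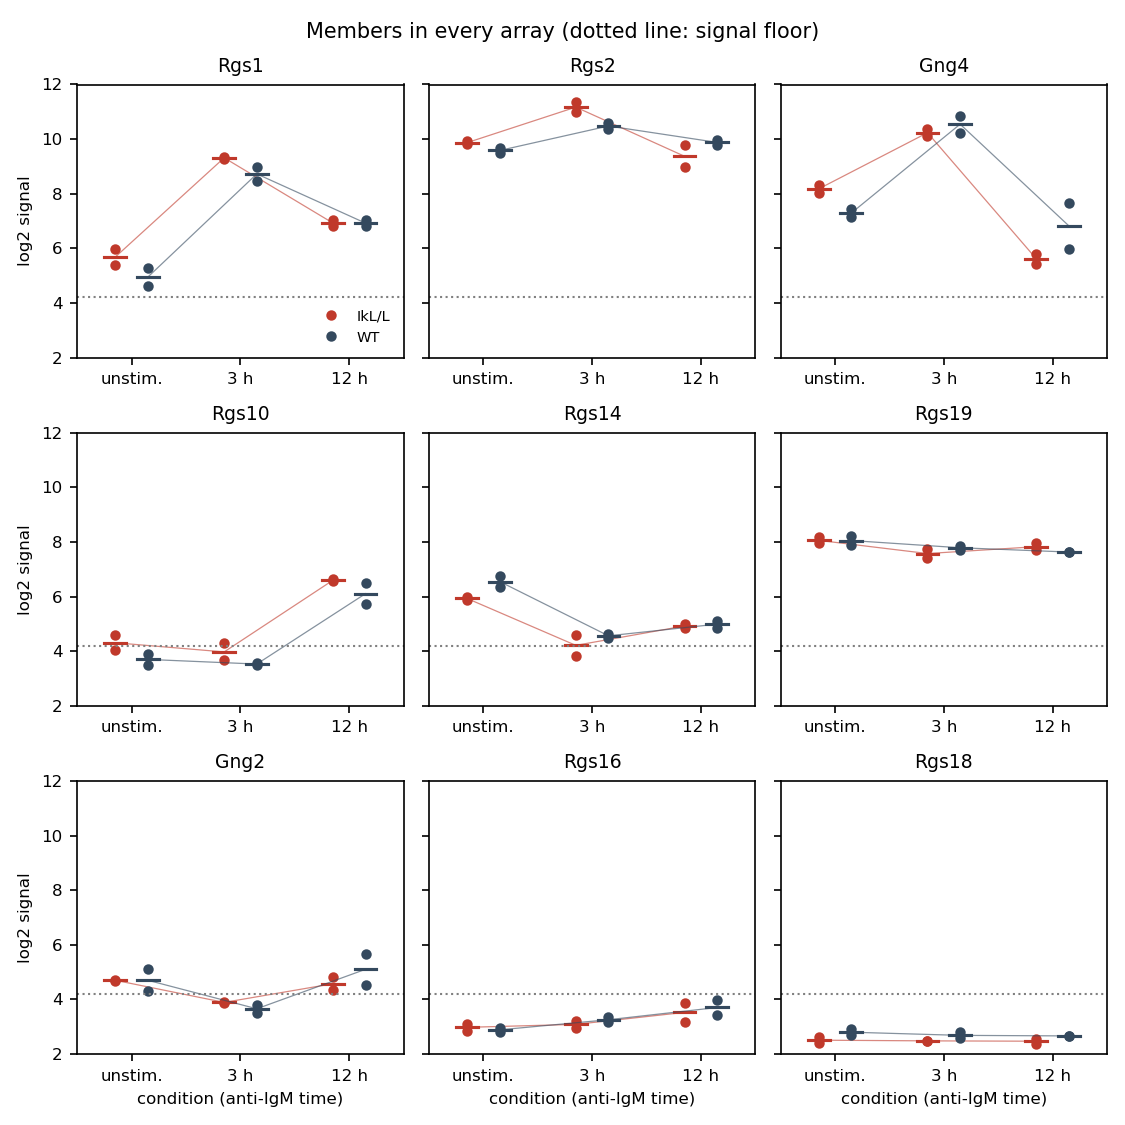
Log2 signal (vertical axis) of the 9 members in every array, for unstimulated cells and for 3 h and 12 h of anti-IgM, with IkL/L left of WT. Points are arrays, short bars are means of 2 arrays and the dotted line is the floor of 4.21. Rgs1, Rgs2 and Gng4 peak at 3 h, Rgs10 leaves the floor at 12 h, and Rgs16 and Rgs18 stay under it by the probe sets used.

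At 12 h, 2 members were higher and 2 lower than in unstimulated IkL/L cells, against 9.72% of all genes higher and 7.87% lower (17.6% called). In WT cells 3 members were higher and 1 lower, against 10.1% and 8.66% of all genes (18.8% called). The members were Rgs1 and Rgs10 (higher) and Rgs14 and Gng4 (lower) in IkL/L. They were Rgs1, Rgs10 and Rgs16 (higher) and Rgs14 (lower) in WT. Between 3 h and 12 h, 1 member rose and 3 fell in IkL/L cells, against 9.12% and 6.42% of all genes (15.5% called). In WT cells 2 rose and 2 fell, against 6.5% and 4.33% (10.8% called). The median log2 difference of the members between 3 h and 12 h was 0.25 in IkL/L and -0.02 in WT cells, against 0.05 and 0.02 over all genes. The WT member median is again the value of Rgs18.

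Rgs10, a small RGS protein that acts on inhibitory alpha subunits, was the late member. Its log2 signals in IkL/L cells were 4.03 and 4.59 without stimulus, 3.66 and 4.29 at 3 h, and 6.63 and 6.57 at 12 h. For WT cells the signals were 3.51 and 3.89, 3.48 and 3.58, and 5.71 and 6.50 in the same order. Only 2 of the 8 earlier arrays, both IkL/L, were above the floor, and all 4 arrays at 12 h were. Rgs10 rose at 12 h by at least 4.61-fold over unstimulated IkL/L cells (2.29, SE 0.29, adjusted p = 0.000476) and by at least 3.74-fold over unstimulated WT cells (2.41, adjusted p = 0.000291).

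From 3 h to 12 h the rise of Rgs10 was at least 5.11-fold in IkL/L cells (adjusted p = 0.000289) and at least 3.74-fold in WT cells (adjusted p = 0.000551). The WT folds at 12 h are the same bound because all unstimulated and 3 h WT arrays were under the floor. At 3 h the differences from unstimulated cells were -0.33 in IkL/L and -0.17 in WT cells (adjusted p = 0.547 and 0.818), with values at or under the floor. Rgs10 was called higher at 12 h in all 26 fits run, with log2 differences between 1.88 and 2.60 in IkL/L and between 1.90 and 2.80 in WT cells.

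Rgs14, a scaffold that joins an RGS domain to Ras-binding and alpha subunit-binding domains, fell with stimulation. Its log2 signals in IkL/L cells were 6.00 and 5.87 without stimulus, 4.61 and 3.82 at 3 h, and 5.01 and 4.84 at 12 h. The corresponding WT signals were 6.34 and 6.77, 4.49 and 4.64, and 5.12 and 4.86 in the same order. All 4 unstimulated arrays lay above all 8 stimulated arrays. Rgs14 fell at 3 h by at least 2.88-fold in IkL/L cells (-1.72, SE 0.24, adjusted p = 0.000542) and 3.96-fold in WT cells (-1.99, adjusted p = 0.000228).

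At 12 h Rgs14 was 2.01-fold below unstimulated IkL/L cells (-1.01, adjusted p = 0.0143) and 2.95-fold below unstimulated WT cells (-1.56, adjusted p = 0.00116). The IkL/L call at 12 h was lost without unstimulated IkL/L replicate 1 (-0.94) and without IkL/L 12 h replicate 2 (-0.93). It was also lost without IkL/L replicate 1 or replicate 2 in all conditions (-1.02 and -0.99). Each such fit leaves 1 array in a group. The WT call was lost without all WT replicate 2 arrays (-1.22, adjusted p = 0.0901). Between 3 h and 12 h the IkL/L difference was 0.71 (adjusted p = 0.0758, and 0.0247 with the replicate block within genotype). It was 1.11 without IkL/L 3 h replicate 1 (adjusted p = 0.0107).

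Rgs19, which acts on inhibitory alpha subunits, was well above the floor and varied little. Its log2 signals in IkL/L cells were 7.95 and 8.17 without stimulus, 7.41 and 7.74 at 3 h, and 7.71 and 7.94 at 12 h. In WT arrays the signals were 7.90 and 8.21, 7.72 and 7.86, and 7.64 and 7.62 in the same order. The lowest and highest of the 12 arrays were 7.41 and 8.21. The 3 h difference was -0.48 in IkL/L cells (95% interval -0.84 to -0.13, adjusted p = 0.0604) and -0.26 in WT cells (-0.62 to 0.09, adjusted p = 0.365). With the replicate block within genotype the IkL/L difference at 3 h had an adjusted p of 0.013 and the WT difference at 12 h (-0.42) one of 0.0277, against 0.108 without the block. The IkL/L difference at 3 h was -0.65 without IkL/L 3 h replicate 2 (adjusted p = 0.0481).

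Gng2, the other gamma subunit among the members, was dim. Its log2 signals in IkL/L cells were 4.68 and 4.72 without stimulus, 3.92 and 3.86 at 3 h, and 4.33 and 4.82 at 12 h. In WT cells they were 4.29 and 5.11, 3.50 and 3.81, and 4.53 and 5.68 in the same order. All 4 arrays at 3 h were under the floor and all 8 others above it. The differences between 3 h and unstimulated cells were -0.81 in IkL/L (adjusted p = 0.16) and -1.04 in WT cells (adjusted p = 0.0701). With the replicate block within genotype these had adjusted p values of 0.0105 and 0.00251.

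Between 3 h and 12 h Gng2 was at least 1.86-fold higher in WT cells (1.45, SE 0.35, adjusted p = 0.0267), and the IkL/L difference was 0.68 (adjusted p = 0.273, and 0.0302 with the block). The WT call was held in 16 of 26 fits. It was lost for the mean of all Gng2 probe sets (0.39, adjusted p = 0.149) and with values under the floor raised to it (0.90, adjusted p = 0.131). Scaling to housekeeping genes (1.21, adjusted p = 0.109) and fitting only the groups compared (adjusted p = 0.096) lost it too. So did leaving out WT 12 h replicate 2 (0.87), WT 3 h replicate 1 (1.29) or 2 (1.60), or all WT replicate 2 arrays (1.03). Leaving out either IkL/L replicate number in all conditions also lost the call, with the difference unchanged. A second Gng2 probe set was above the floor only in the 2 unstimulated WT arrays, at 4.53 and 4.30. With every probe set fitted on its own it was at least 1.15-fold lower in stimulated than unstimulated WT cells at both times (adjusted p = 7.44e-05 and 0.000262 in time order), and called in all 16 fits with arrays left out, which were added after seeing the data. Since it was under the floor in all IkL/L arrays, no change is given for it there. The probe set used gave a WT difference of 0.40 at 12 h (95% interval -0.38 to 1.19, adjusted p = 0.561).

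**Figure D2:**
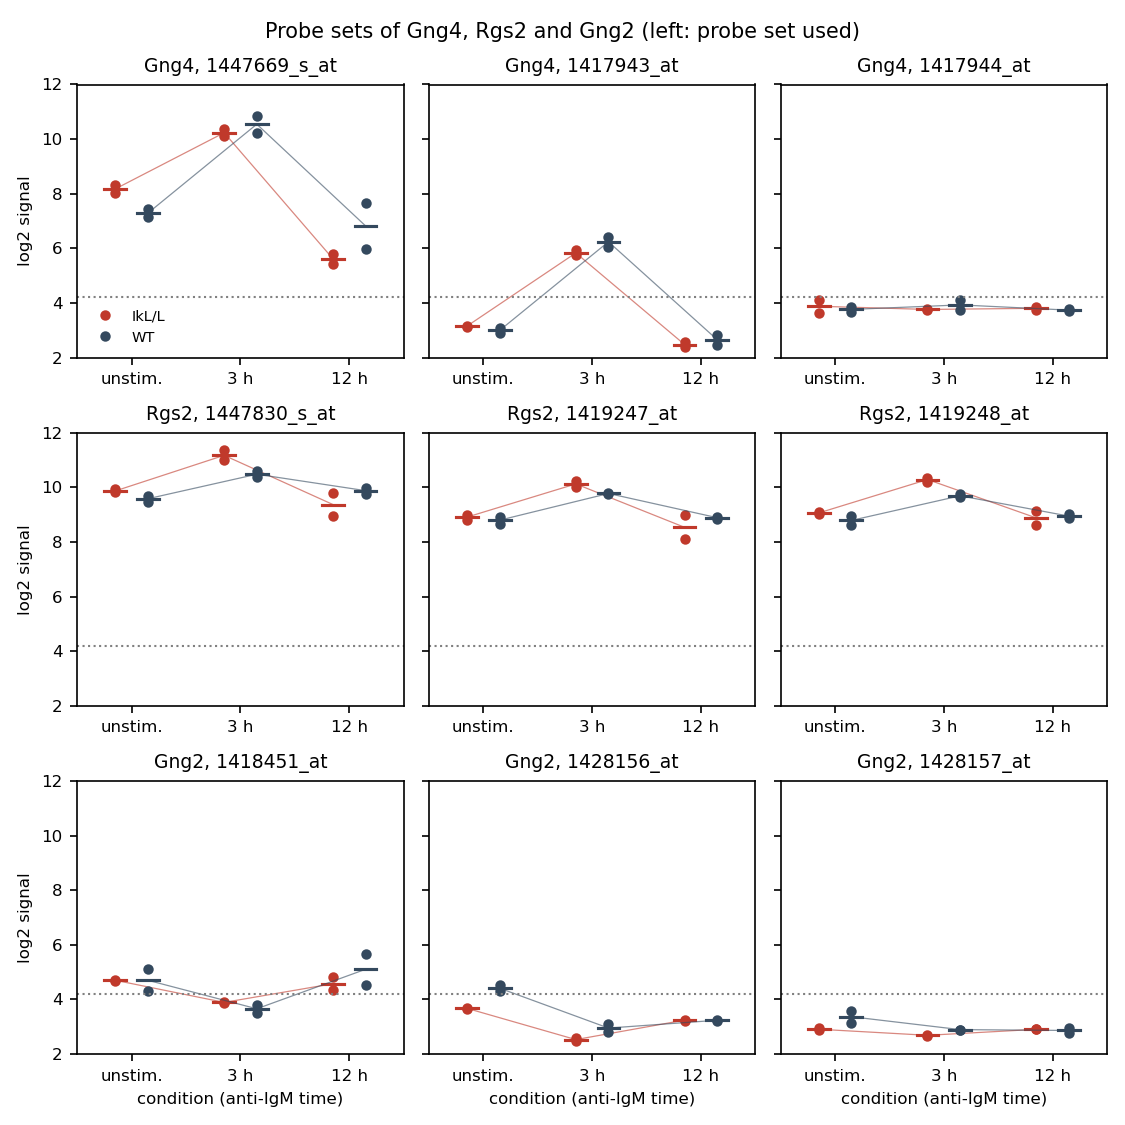
Log2 signal of 3 probe sets each of Gng4, Rgs2 and Gng2 in every array, with the probe set used on the left and IkL/L left of WT. Points are arrays, bars are means of 2 arrays and the dotted line is the floor of 4.21. Gng4 and Rgs2 probe sets above the floor share the 3 h peak, while only the Gng2 probe set used is above the floor at 12 h.

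Rgs16, an RGS protein of inhibitory and Gq alpha subunits, ranged from 2.81 to 3.97 by the probe set used and was under the floor in all 12 arrays. Its difference of 0.82 at 12 h in WT cells passed the test (adjusted p = 0.0402) without reaching the floor, in 14 of 25 fits, and its IkL/L difference was 0.55 (adjusted p = 0.18). Of its 2 other probe sets, 1 was under the floor in every array and 1 was above it in a single array, IkL/L 12 h replicate 2, at 4.24. That probe set gave 12 h differences of 1.16 in IkL/L (adjusted p = 0.056) and 0.75 in WT cells (adjusted p = 0.225), so the genotypes stand in opposite order in these probe sets. Rgs18, known from platelets and their precursors, ranged from 2.38 to 2.90 and was likewise under the floor in every array. No fold is given for either gene.

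**Figure D3:**
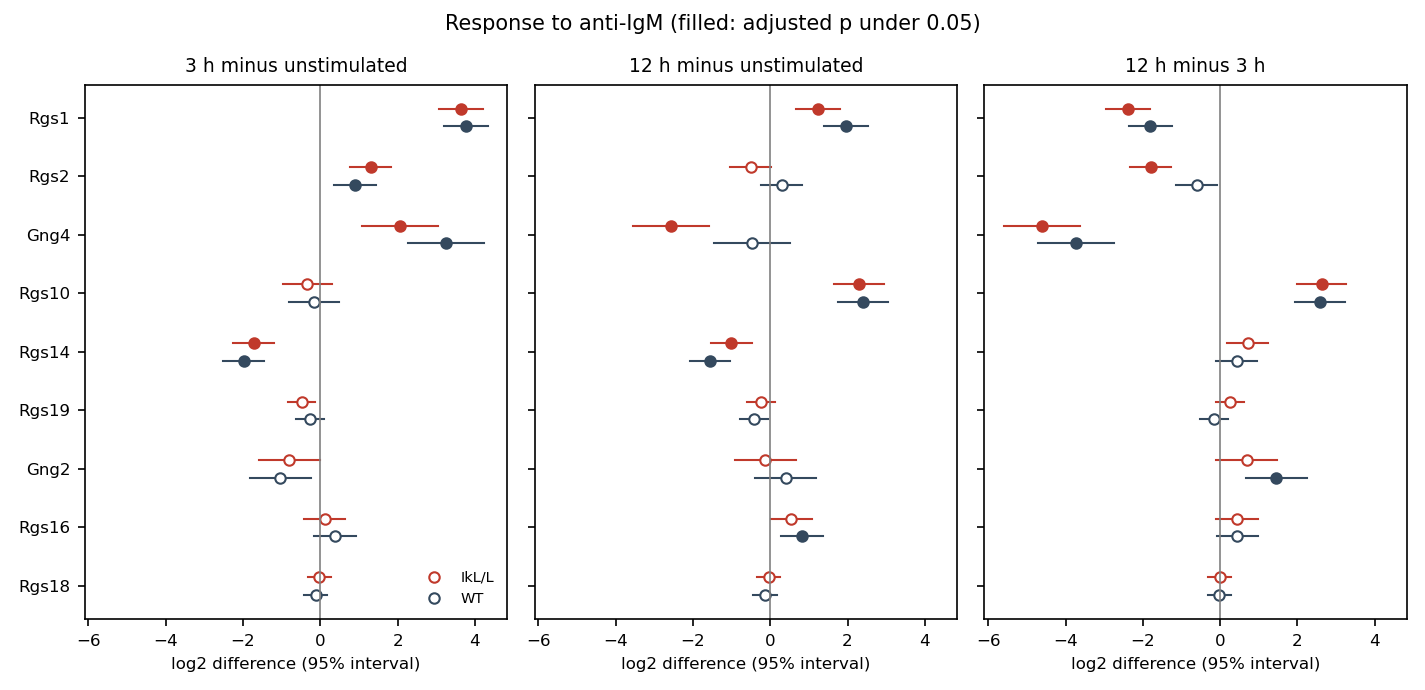
Log2 differences of the 9 members after anti-IgM with 95% intervals from limma, in IkL/L and WT cells, for 3 h and 12 h against unstimulated cells and for 12 h against 3 h. Filled points have an adjusted p under 0.05, and each comparison rests on 2 arrays per group. The filled points at 3 h are Rgs1, Rgs2 and Gng4 to the right of zero and Rgs14 to the left, in both genotypes.

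Between IkL/L and WT cells, by the probe sets used, limma called 0 of 9 members in unstimulated cells (1.13% of all genes called), 0 at 3 h (1.7% called), 0 at 12 h (0.616% called) and 0 on average over the 3 conditions (6.08% called). At an unadjusted p under 0.05 the numbers were 2, 2, 1 and 4 members. The 4 in the average were Rgs1, Rgs10, Rgs14 and Rgs18. Of these, Rgs18 was under the floor in every array, and Rgs10 was above it in only 6 arrays. Nor was any member called for a difference between the genotypes' responses, at 3 h (0.0385% called) or at 12 h (0.022% called). There, 0 and 2 members had an unadjusted p under 0.05. The shares of all genes given here are for adjusted p. The share at an unadjusted p under 0.05 is not given, so the unadjusted numbers have no background to be set against. A missed threshold does not show that the genotypes were alike, and the intervals below give the differences that remain possible. The average over the 3 conditions counts same-numbered arrays of a genotype as independent. They were read as paired, so the p values of averages may be too small and their intervals too narrow.

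The members with the largest differences between genotypes in a single condition were Gng4, Rgs1, Rgs2 and Rgs14. Rgs1 was 0.73 higher in unstimulated IkL/L than WT cells (95% interval 0.16 to 1.30, adjusted p = 0.285) and 0.59 higher at 3 h (0.02 to 1.16, adjusted p = 0.369). The 2 arrays of each genotype did not overlap in either condition. With 2 arrays each this carries little weight, and the share of all genes without overlap is not given here. At 12 h the difference was 0.0035 (-0.56 to 0.57). Rgs2 differed by 0.69 at 3 h (0.16 to 1.22, adjusted p = 0.239), again without overlap. The 2 further Rgs2 probe sets above the floor in all 12 arrays gave 0.35 (adjusted p = 0.655) and 0.60 (adjusted p = 0.179), with every probe set fitted on its own. Rgs14 differed by -0.62 in unstimulated cells (-1.15 to -0.09, adjusted p = 0.35).

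Gng4 was 1.20 lower in IkL/L than WT cells at 12 h (95% interval -2.19 to -0.22, adjusted p = 0.38). The IkL/L arrays there, at 5.81 and 5.43, lay under both WT arrays, at 5.97 and 7.67. Without WT 12 h replicate 1 the difference was -2.06, and over all 26 fits it lay between -2.06 and -0.35. With the replicate block within genotype its adjusted p was 0.0401, but that block takes replicate spread out of the genotype comparison. The difference between the genotypes' 12 h responses of Gng4 was -2.09 (-3.48 to -0.70, adjusted p = 0.629). In unstimulated cells Gng4 was 0.88 higher in IkL/L (-0.10 to 1.87, adjusted p = 0.531).

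The second Gng2 probe set was called between genotypes when every probe set was fitted on its own. In unstimulated cells it read 3.66 and 3.69 in IkL/L arrays, under the floor, against 4.53 and 4.30 in WT arrays, which makes it at least 1.15-fold lower in IkL/L (-0.74, adjusted p = 0.0365). The call was made in 2 of 16 fits with arrays left out, which left out 1 WT 3 h array each, and the adjusted p lay between 0.0333 and 0.329. Its average difference over the conditions was -0.38 (adjusted p = 0.021, called in 8 of 16 such fits), with 10 of 12 arrays under the floor. The Gng2 probe set used gave 0.0012 in unstimulated cells (95% interval -0.79 to 0.79) and -0.10 on average (adjusted p = 0.878).

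Rgs10 was higher in IkL/L arrays by 0.51 on average over the conditions (95% interval 0.14 to 0.89, adjusted p = 0.112). Its unstimulated and 3 h WT arrays were all under the floor. With the replicate block within genotype the adjusted p was 0.0147, but that block takes replicate spread out of the genotype comparison. Without WT 12 h replicate 2 the average difference of Rgs10 was 0.65. Rgs19 differed by -0.0025 on average (-0.21 to 0.20), the narrowest interval among the members above the floor in all arrays. Rgs14 averaged 0.35 lower (adjusted p = 0.197), and was called without IkL/L 3 h replicate 1 (-0.48, adjusted p = 0.0339).

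**Figure D4:**
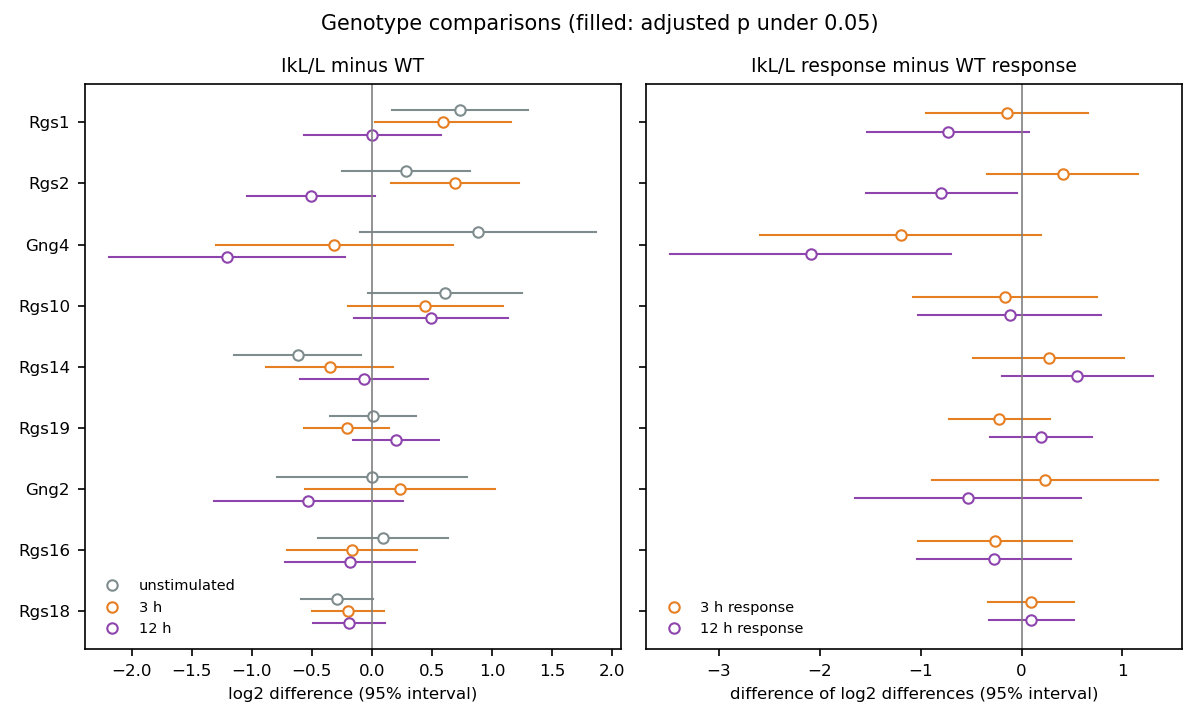
Log2 differences of the 9 members between IkL/L and WT cells in unstimulated cells, at 3 h and at 12 h of anti-IgM, and differences between the genotypes' responses, with 95% intervals from limma (2 arrays per group). No point is filled, since no adjusted p was under 0.05. The interval of Gng4 at 12 h runs from -2.19 to -0.22.

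The 3 WT replicate 1 arrays differed in sex from the others. Their log2 signals of Xist, the RNA of the inactive X chromosome, were 10.0 to 10.7, against 3.19 to 3.48 in the other 9 arrays, the IkL/L arrays included. Without those 3 arrays, Rgs1, Rgs10, Rgs14 and Gng4 kept their calls in WT cells at the times given above, except that of Rgs1 between 3 h and 12 h. The WT rise of Rgs2 at 3 h then had an adjusted p of 0.249, and the WT difference of Gng2 at 3 h was called (-1.29, adjusted p = 0.0219). Between genotypes the 12 h difference of Gng4 was called (-2.06, adjusted p = 0.0257), as was its average difference (-0.65, adjusted p = 0.0403, against -0.21 and 0.762 with all arrays). The part of sex in these results was not tested further.

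Ikzf1 itself gave log2 signals of 10.00 and 9.94 in unstimulated IkL/L cells and 9.85 and 9.83 in unstimulated WT cells (adjusted p = 0.937). At 3 h they were 8.58 and 8.08 in IkL/L and 8.93 and 9.10 in WT cells, and at 12 h 9.59 and 8.98 in IkL/L and 10.33 and 10.00 in WT cells (adjusted p = 0.193 and 0.148). The position of its probe set relative to the IkL change is not known here, so these signals do not check the labels. All 6 measured follicular B cell markers were above the floor in every array, and 6 of 7 T cell, 4 of 4 NK cell, 4 of 8 myeloid and 4 of 6 platelet and megakaryocyte markers were under it in all 12. Among the others, S100a8 ranged from 3.42 to 7.26, Itgb3 from 3.19 to 8.20 and Jchain from 3.58 to 8.68. The summed signal of the follicular markers was 7130 to 10200 in the stimulated arrays, against 12300 to 16600 in the unstimulated ones, and that of the platelet list 62 to 107, against 234 to 349. The plasma cell list summed to 4540 to 5220 at 3 h, against 1550 to 2600 unstimulated. The marginal zone list at 3 h summed to 1370 to 1580 in IkL/L, against 2860 to 3320 in WT cells. Such sums follow the brightest gene of a list and do not count cells. In the plasma cell list that was Irf4 (9.951 to 12.12), while Sdc1 reached at most 6.605 and Prdm1 4.931. In the platelet list no marker but Itgb3 exceeded 4.685. The part of these markers in the members' changes was not tested. Replicates of a group correlated at 0.99 to 0.994 over genes.

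The surrounding G protein pathway was read from 6 gene lists. Of 12 measured of 14 other Rgs genes, only 3 were above the floor in any array, and of 9 measured of 10 other gamma subunits likewise 3. Among the other Rgs genes, 1 was called higher and 1 lower at 3 h in IkL/L cells (9.82% and 10.6% of all genes), and 1 higher and 0 lower in WT cells (9.15% and 10.2%). Among the other gamma subunits 1 was called lower at 3 h in each genotype, which was Gngt2, under the floor in every array. The median differences at 3 h of the other Rgs genes were -0.02 in IkL/L and 0.0025 in WT cells and those of the other gamma subunits -0.07 and 0.05, against -0.03 and 0.02 over all genes.

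Rgs13, an RGS protein of germinal centre B cells, lies between Rgs2 and Rgs1 on mouse chromosome 1 (gene order of GRCm38.p6). Its log2 signals in IkL/L cells were 2.87 and 2.75 without stimulus, 3.85 and 3.75 at 3 h, and 3.01 and 2.95 at 12 h. The WT signals were 3.36 and 3.44, 4.15 and 4.82, and 4.65 and 4.50 in the same order. Only 3 arrays, all stimulated WT, were above the floor. Rgs13 was at least 1.29-fold lower in IkL/L than WT cells at 12 h (-1.60, adjusted p = 0.00603), a call lost without IkL/L 12 h replicate 2 (adjusted p = 0.0675), without either IkL/L replicate number in all conditions (adjusted p = 0.0687 and 0.204) and with values raised to the floor (adjusted p = 0.404). On the other side of Rgs1 lie Rgs21, not among the measured genes, and Rgs18.

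Gng12, another gamma subunit, gave log2 signals in IkL/L cells of 4.57 and 4.68 without stimulus, 4.61 and 5.35 at 3 h, and 6.13 and 5.84 at 12 h. WT arrays gave 3.62 and 3.94, 3.72 and 3.94, and 4.74 and 5.07 in the same order. Each IkL/L group lay above its WT group, and the 4 earlier WT arrays were under the floor. Gng12 was 1.03 higher in IkL/L cells on average (adjusted p = 0.00206, with same-numbered arrays counted as independent). It rose at 12 h in IkL/L cells by 1.36 (adjusted p = 0.00267) and in WT cells by 1.12 (adjusted p = 0.00668). The WT rise was lost without unstimulated WT replicate 1 (adjusted p = 0.0614) or WT 12 h replicate 2 (adjusted p = 0.0539).

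The alpha subunits as a list were called about as often as all genes. Of 13 measured, 0 were called higher and 2 lower at 3 h in IkL/L cells (20.4% of all genes called), and 1 higher and 2 lower in WT cells (19.4% called), with median differences of 0.03 and -0.08. The 1 called higher was Gnao1, under the floor in every array. Of 5 beta subunits, 2 fell in each genotype (medians -0.32 and -0.17). Of 18 measured of 22 beta-gamma effectors and G protein regulators, 0 were called higher and 8 lower in each genotype, where 10.6% of all genes in IkL/L and 10.2% in WT cells were called lower, with median differences of -0.51 in IkL/L and -0.32 in WT cells, against -0.03 and 0.02 over all genes.

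Gnai2, the main inhibitory alpha subunit of lymphocytes, fell 5.73-fold at 3 h in IkL/L cells (-2.52, adjusted p = 0.000151) and 3.88-fold in WT cells (-1.96, adjusted p = 0.000674). Gnb2, a beta subunit, fell 2.2-fold in IkL/L (adjusted p = 0.000206) and 2.16-fold in WT cells (adjusted p = 0.000228). Adcy7, an adenylyl cyclase, fell 8.39-fold in IkL/L (adjusted p = 1.48e-05) and 6.93-fold in WT cells (adjusted p = 2.86e-05). These 3 genes were thus low in the condition where Rgs1, Rgs2 and Gng4 were high. Between 3 h and 12 h Gnai2 rose by 2.08 in IkL/L cells (adjusted p = 0.000823, and 0.0555 without all IkL/L replicate 2 arrays) and Adcy7 by 2.66 (adjusted p = 6.85e-05).

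In WT cells Adcy7 rose by 1.93 between 3 h and 12 h (adjusted p = 0.000625) and Gnai2 by 1.13 (adjusted p = 0.027). That Gnai2 call in WT cells was lost without WT 3 h replicate 1 (adjusted p = 0.182) or WT 12 h replicate 2 (adjusted p = 0.166). Pik3cg, the catalytic subunit of the kinase that beta-gamma activates, fell at 3 h by at least 2.27-fold in IkL/L (adjusted p = 4.55e-05) and at least 5.08-fold in WT cells (adjusted p = 1.08e-05). Gpsm3, a regulator that binds alpha and beta subunits, fell at least 3.94-fold in IkL/L (adjusted p = 0.000342) and 4.83-fold in WT cells (adjusted p = 0.000356).

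Receptors moved in both directions. Of 18 measured of 20 listed receptors, 3 rose and 7 fell at 3 h in each genotype, against 9.82% of all genes higher and 10.6% lower in IkL/L and 9.15% and 10.2% in WT cells. At 12 h 1 was higher and 10 were lower in each genotype, against 9.72% and 7.87% of all genes in IkL/L and 10.1% and 8.66% in WT cells. Their median difference at 3 h was -0.22 in IkL/L and -0.09 in WT cells, and at 12 h -0.88 and -1.13, against 0.02 and 0.05 at 12 h over all genes. S1pr3, a sphingosine 1-phosphate receptor, rose at 3 h by at least 17.2-fold in IkL/L (adjusted p = 3.24e-06) and at least 18.4-fold in WT cells (adjusted p = 4.61e-06). Ptger4, a prostaglandin E receptor, rose 5.71-fold in IkL/L (adjusted p = 9.94e-06) and 5.41-fold in WT cells (adjusted p = 1.25e-05). S1pr4, another sphingosine 1-phosphate receptor, fell 14.6-fold in IkL/L (adjusted p = 7.93e-06) and 8.99-fold in WT cells (adjusted p = 2.1e-05).

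S1pr3 and Ptger4 shared the 3 h peak of Rgs1, Rgs2 and Gng4. Between 3 h and 12 h S1pr3 fell 5.2-fold in IkL/L (adjusted p = 0.000178) and 4.44-fold in WT cells (adjusted p = 0.000551). Ptger4 fell 7.25-fold in IkL/L (adjusted p = 1.55e-05) and 4.66-fold in WT cells (adjusted p = 9.21e-05). S1pr1, the receptor for exit into blood and lymph, was the receptor with the largest genotype difference at 3 h: it was 3.4-fold lower in IkL/L than WT cells (-1.77, adjusted p = 0.00199), a call lost without either WT replicate number in all conditions (adjusted p = 0.0518 and 0.0849).

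**Figure D5:**
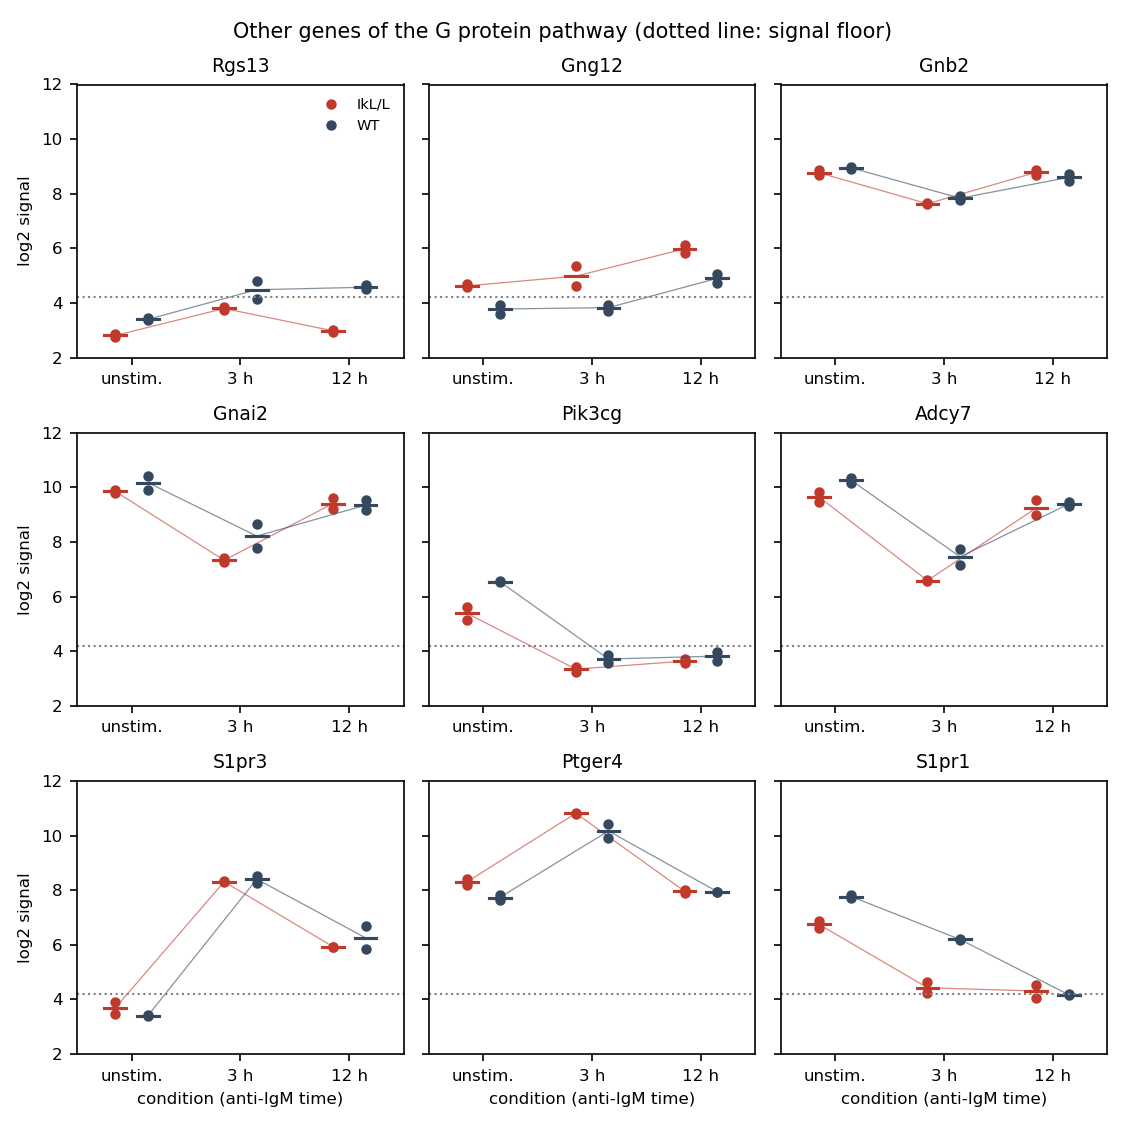
Log2 signal (vertical axis) of other G protein pathway genes in every array, for unstimulated cells and 3 h and 12 h of anti-IgM, with IkL/L left of WT. Points are arrays, bars are means of 2 arrays and the dotted line is the floor of 4.21. Gnai2 and Adcy7 dip at 3 h and S1pr3 and Ptger4 peak there.

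The genes whose pattern over the 12 arrays was most like that of each varying member are given by the mean absolute difference between values centred on each gene's own mean. For Rgs1 they were Slc15a3 (0.334), Tent5c (0.388) and Pvt1 (0.409). For Rgs2 they were Bach1 (0.145), Tatdn2 (0.162) and Myo10 (0.190). Rgs10 was followed by Nubpl (0.212), Atxn1 (0.297) and Phpt1 (0.327), and Rgs14 by Ppp1r21 (0.166), Traf3ip3 (0.172) and Gga2 (0.175). For Gng4 they were Irs2 (0.534), Gm31718 (0.545) and Cd274 (0.664), and for Gng2 Igsf8 (0.191), Sfxn5 (0.192) and Abhd8 (0.202). The measure grows with the range of a gene, so the values of Gng4 and Rgs2 are not comparable, and the arrays share their 6 conditions.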

How the data were processed

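Arrays were 12 Affymetrix mouse 3' expression arrays of 100 ng total RNA labelled in 2 cycles, per the labels' protocols. The values are log2 signals as deposited, made with RMA (version not named), per the submitters' processing notes. Sample titles gave groups and replicate numbers. Of 45037 probe sets, 34945 had 1 symbol, 932 several and 9160 none listed. Per gene, the probe set with the highest mean was kept (18193 genes, 9010 with more than 1 probe set). A linear model with 6 group means was fitted to all 12 arrays in limma 3.58.1 (R 4.3.3), with 6 residual and 3.95 prior degrees of freedom and Benjamini-Hochberg adjustment over all genes. Array medians were 3.12 to 3.21. The number of arrays limits the precision. The p-values rest on 1 spread per gene, pooled over the 2 arrays of each of the 6 groups and drawn towards the prior. The main fit had no replicate term and so counted same-numbered arrays as independent. The script was tested on simulated data with independent arrays and changes in 1 group only, so that test does not cover paired arrays.

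Members and lists were chosen with earlier results of these data known. Named were all 9 members, per list and comparison up to 3 called genes with the largest change, and per member spanning at least 1 log2 unit the 3 most alike genes. Of these, only a part is printed. Xist, Ikzf1 and second probe sets were named after their values were seen. Deviations of same-numbered arrays correlated at 0.354 to 0.49 within IkL/L, at 0.546 to 0.619 within WT and at 0.0263 to 0.31 across genotypes (6064 genes). Every pair within a genotype and 8 of 9 across genotypes exceeded 0.1, so the numbers were read as pairing arrays within a genotype, and a block shared by both genotypes was fitted too. Another background correction and a slide block were not possible from the values used here.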

Additional observations from a re-analysis of the deposited data

How the results depend on the processing

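Over 1044 comparisons of a result with a planned setting, 993 kept direction and side of the threshold, 21 changed sign with neither value called, 6 lost the call, 24 gained one and 0 called values reversed. With arrays left out, 1586 of 1728 kept both, 87 changed sign uncalled, 34 lost the call, 21 gained one and 0 reversed. These totals overstate how much was tried. Where the array left out lies outside a comparison, the log2 difference could not change, only its p. The replicate blocks, the intensity trend and fitting only the groups compared leave it unchanged too. Results called in neither fit counted as kept if their sign held. With the replicate number as a block within genotype, genes called were 3090 for WT 12 h against 3 h, 717, 935, 467 and 2371 for IkL/L against WT (unstimulated, 3 h, 12 h, mean) and 27 and 26 for the response differences (3 h, 12 h), with 1 member at 12 h (Gng4) and 1 in the mean (Rgs10). That block gave each genotype its own replicate term, which takes replicate spread out of the genotype comparisons. No other member call changed under it beyond those given with the genes. With a block shared by both genotypes the genotype counts were 400, 572, 187 and 1763 (1 member in the mean, Rgs10, adjusted p = 0.0176) and the response differences 11 and 19. That shared block also called Gng2 (0.0397) and Rgs19 (0.013) at 3 h in IkL/L, Gng2 at 3 h (0.0118) and Rgs19 at 12 h (0.0276) in WT cells. Without a block they were 205, 310, 112 and 1107, and 7 and 4. The other main counts were 3719 and 3529 (3 h, IkL/L and WT), 3201 and 3415 (12 h), and 2827 and 1970 (12 h against 3 h).

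Scaling to 9 housekeeping genes gave 4905 genes for IkL/L at 12 h (3201 without), 87, 121, 33 and 678 between genotypes and 1 for the 3 h response difference. It moved the median gene by -0.41 and -0.28 at 12 h in IkL/L and WT, by -0.40 and -0.23 between 3 h and 12 h, by -0.14 in the 12 h genotype comparison and by -0.13 in the 12 h response difference. Higher calls then made up 11.6% (55.3% without) and 25.3% (53.9%) at 12 h, 15.7% (58.7%) and 28.7% (60%) between 3 h and 12 h, and 42.6% (56.1%) in the genotype mean. Under it Rgs2 was called lower in IkL/L at 12 h (-0.91, adjusted p = 0.0184), and no called member changed sign. Median centring moved IkL/L 12 h against 3 h by -0.12 (45.3% higher) and gave 42.3% (52.7%) in unstimulated genotypes. For the few calls of the 3 h response difference the share was 83.3% under median centring and 100% under housekeeping scaling, against 71.4%.

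Mean of all probe sets gave 2 and 13 response differences, removal of the dimmest genes 2 at 3 h, and values raised to the floor 54 genotype genes at 12 h with 22 and 24 response differences. Genes under the floor in all arrays (Rgs16 and Rgs18 among them) have no value there. An intensity trend gave 7 at 12 h and 1 member in the genotype mean (Rgs18). Fitting only the groups compared gave 1197 for WT 12 h against 3 h, 44, 128 and 4 between genotypes and 2 and 2 response differences. Every probe set on its own gave 6150, 5648, 5062 and 5430 (3 h IkL/L and WT, 12 h IkL/L and WT), 4630 for IkL/L 12 h against 3 h and 0 at the 3 h response difference. The causes were not tested.

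With 1 array left out, calls ranged over 2547 to 3800 genes (3 to 5 members) for IkL/L at 3 h, 2427 to 3625 genes (3 to 5 members) for WT at 3 h, 1905 to 3325 genes (2 to 6 members) for IkL/L at 12 h, 2237 to 3545 genes (3 to 4 members) for WT at 12 h, 1629 to 2974 genes (4 to 5 members) for IkL/L 12 h against 3 h, 1055 to 2082 genes (3 to 5 members) for WT 12 h against 3 h. They ranged over 33 to 204 genes (0 members) for IkL/L against WT unstimulated, 33 to 327 genes (0 members) for IkL/L against WT at 3 h, 24 to 162 genes (0 to 1 members) for IkL/L against WT at 12 h, 610 to 1167 genes (0 to 1 members) for IkL/L against WT on average, 0 to 2 genes (0 members) for the 3 h response difference, 1 to 7 genes (0 members) for the 12 h response difference. Without IkL/L replicate 1 in all conditions there were 1963 genes for IkL/L at 3 h, 1709 genes and 1 member for IkL/L at 12 h, 1268 genes for IkL/L 12 h against 3 h, 104 genes for IkL/L against WT unstimulated, 168 genes for IkL/L against WT at 3 h, 0 genes for the 3 h response difference, 1 gene for the 12 h response difference. Without IkL/L replicate 2 in all conditions there were 2171 genes for IkL/L at 3 h, 1381 genes and 2 members for IkL/L at 12 h, 1058 genes for IkL/L 12 h against 3 h, 16 genes for IkL/L against WT unstimulated, 40 genes for IkL/L against WT at 3 h, 4 genes for IkL/L against WT at 12 h, 227 genes for IkL/L against WT on average, 0 genes for the 3 h response difference, 0 genes for the 12 h response difference. Without WT replicate 1 in all conditions there were 1771 genes for WT at 3 h, 1639 genes for WT at 12 h, 524 genes for WT 12 h against 3 h, 83 genes for IkL/L against WT unstimulated, 109 genes for IkL/L against WT at 3 h, 1 member for IkL/L against WT at 12 h, 1 member for IkL/L against WT on average, 0 genes for the 3 h response difference, 0 genes for the 12 h response difference. Without WT replicate 2 in all conditions there were 1868 genes for WT at 3 h, 1589 genes for WT at 12 h, 412 genes for WT 12 h against 3 h, 42 genes for IkL/L against WT unstimulated, 17 genes for IkL/L against WT at 3 h, 18 genes for IkL/L against WT at 12 h, 276 genes for IkL/L against WT on average, 0 genes for the 3 h response difference, 0 genes for the 12 h response difference. These 4 fits were added after seeing the data. Signals under the floor limit Rgs10, Gng2, Rgs16 and Rgs18.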
